A study of Mus musculus with 12 samples.

Results

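The genes described here encode the machinery of MHC class II antigen presentation, measured in premalignant pre-B cells with and without Smchd1. They are listed on the array as H2-AA, H2-AB1, H2-EB1, H2-DMA, H2-DMB1, H2-DMB2, H2-OA, H2-OB, CD74 and CIITA, were taken by name, and are written below as H2-Aa and so on. Each probe whose target name equalled one of these was used. This gave 18 of the 45281 probes of the array, which read 10 genes, where the whole array holds 30774 target names. Ciita was listed under its current name for 1 probe and as C2TA, its older name, for another. A single probe each reads H2-Aa, H2-Eb1, H2-DMb1 and H2-Ob, a pair of probes each reads H2-DMa, H2-DMb2, H2-Oa and Ciita, and 3 probes each read H2-Ab1 and Cd74.

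The 6 null samples were pre-B cells of mice in which both copies of Smchd1, a chromosomal protein of X inactivation and gene silencing, carried a gene trap. The 6 wildtype samples were pre-B cells of mice without the trap. Both groups were C57BL/6 and carried the Eµ-Myc transgene, which drives Myc from an immunoglobulin heavy-chain enhancer in B-lineage cells. The cells were sorted from freshly harvested tissue, and the RNA of each sample went onto 1 Illumina mouse bead array. The labels name neither the age or sex of the mice nor the gate of the sort, and they do not say whether a sample is 1 mouse, so the p-values rest on differences among samples that may be technical. The labels report no RNA quality value.

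MHC class II molecules are pairs of an alpha and a beta chain that show peptides from the endosomes to CD4 T cells. H2-Aa with H2-Ab1 forms the I-A molecule, and H2-Eb1 is the beta chain of I-E. Cd74, the invariant chain, occupies the groove of a new molecule and guides it to the endosomes, where H2-DM exchanges the remnant of Cd74 for peptide and H2-O holds H2-DM in check. Ciita is the coactivator that switches the family on. In the B lineage class II is known to be low in early precursors and to rise as cells mature.

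Ciita does not bind DNA itself but docks on factors at a shared promoter module, in which an X box bound by the RFX complex and CREB lies upstream of a Y box bound by NF-Y. The RefSeq promoter windows for GRCm38.p6, which run from 250 bases before to 50 after an annotated start, were available for 7 of the 10 genes. H2-Ab1 and Ciita were not matched in that table, and the window of Cd74 was not used. The stretch from 125 to 26 bases before the start is shown 5′ to 3′ for 5 genes whose levels are compared below, because the letters of the module were searched for in it. Capitals mark the X letters AACNNATGATG, the Y box ATTGG or its reverse complement, and the CREB letters TGACGTCA. The H2-Eb1 stretch is chr17:34305742-34305841 on the plus strand, that of H2-Aa is chr17:34287849-34287948 on the minus strand, that of H2-DMb1 is chr17:34153066-34153165, that of H2-DMb2 is chr17:34145124-34145223 and that of H2-Ob is chr17:34238780-34238879, the last 3 on the plus strand.
H2-Eb1: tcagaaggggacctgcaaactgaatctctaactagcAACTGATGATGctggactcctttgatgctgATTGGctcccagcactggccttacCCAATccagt
H2-Aa: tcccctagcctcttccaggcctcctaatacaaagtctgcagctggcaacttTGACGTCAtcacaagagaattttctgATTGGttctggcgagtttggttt
H2-DMb1: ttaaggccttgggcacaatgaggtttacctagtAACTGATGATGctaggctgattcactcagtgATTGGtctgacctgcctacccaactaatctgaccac
H2-DMb2: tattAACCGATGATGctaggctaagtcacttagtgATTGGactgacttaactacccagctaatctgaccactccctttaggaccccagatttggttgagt
H2-Ob: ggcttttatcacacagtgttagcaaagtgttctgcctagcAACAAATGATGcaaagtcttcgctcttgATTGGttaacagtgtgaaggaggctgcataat

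The Y letters, searched on both strands, stood in a window of all 7 genes and in 37.4% of all 32851 windows. The 7 genes have 8 windows, so a count by gene is not the same measure as a share of windows. H2-DMa has more than 1 window, and the Y letters stood in only 1 of them. The X letters were taken from the members' own windows, after these sequences had been seen, so their share among the members is no finding. They stood in 4 of the 7 genes, H2-Eb1, H2-DMb1, H2-DMb2 and H2-Ob, and in 45 windows in all, which is 0.137%. In the same 4 genes the Y letters followed the X letters on the same strand, with 19 bases between them in H2-Eb1, 20 in both H2-DMb1 and H2-DMb2 and 17 in H2-Ob. Only 1 other window, that of 2310002L09Rik, held X then Y letters between 5 and 30 bases apart, which makes 5 windows or 0.0152%. H2-Aa held TGACGTCA, which 1.79% of all windows hold, and its Y box lay at positions -48 to -44 from the start. The windows of H2-Ob and H2-Eb1 were among those from which the X letters were read, so both held X then Y letters by construction. Whether these letters go with the levels given below was not tested.

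Transcripts of all 10 genes were detected. Of the 18 probes, 17 were detected on all 12 arrays and the C2TA probe of Ciita on 11, so all 18 were among the 17607 probes tested. Across the series 15396 to 16587 probes were detected per array, and mean raw intensity was 3.08 to 4.43 times that of the negative controls, with null 4 the lowest. The arrays were run on 2 BeadChips, with 3 of each genotype per chip: null 4, 5 and 6 shared BeadChip 1, and the other null arrays shared BeadChip 2. Smchd1 itself, the check of the labels, averaged 5.05 ± 0.35 in null and 9.47 ± 0.14 in wildtype arrays (log2 intensity, SD, n = 6 each; change -4.42, SE 0.14, limma adjusted p = 1.34e-09).

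No class II gene passed the test between the genotypes, and the class II genes varied far more among the null samples than among the wildtype samples. Null 5 held the highest level of most members and null 4 the lowest, while the 6 wildtype samples lay close together. By limma with Benjamini-Hochberg adjustment 0 of the 18 probes were called at adjusted p under 0.05, against 215 of 17607 probes or 1.22% of all tested (0.534% higher and 0.687% lower in null). At an unadjusted p under 0.05 limma gave 2 of 18 (background 18.1%) and the exact two-sided permutation test over samples 1 of 18 (18.7%). The fitted change was above 0 for 15 of 18 probes, against 41.8% of all tested, and its median was 0.27 on the log2 scale, against -0.04 over all tested probes. Levels are log2 intensity after normalization, changes are null minus wildtype, and levels of different probes are not comparable with each other. The sequences of the probes were not used here, so reads of one family member by another's probe, most of all between the neighbouring copies H2-DMb1 and H2-DMb2, could not be checked.

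**Figure D1:**
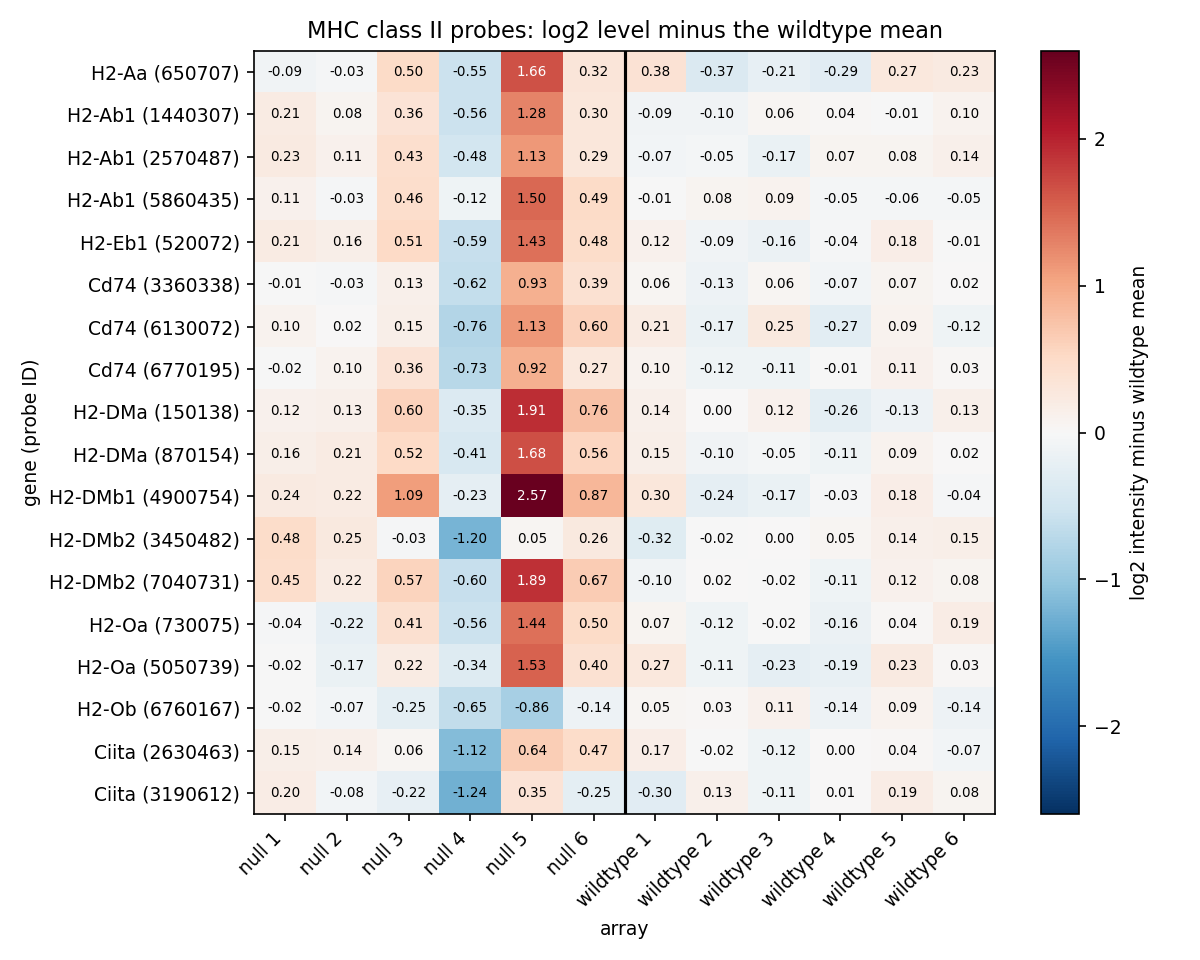
Log2 intensity of the 18 MHC class II probes (rows, with probe number) on each array (columns, null left, wildtype right), minus the probe's wildtype mean. Null 5 reaches 2.57 for H2-DMb1 and null 4 falls to -1.24 for the C2TA probe of Ciita, while wildtype arrays stay between -0.37 and 0.38.

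The I-A and I-E chains were measured by 5 probes, and none passed the test. H2-Aa, the alpha chain of I-A, ran from 9.47 through a median of 10.17 to 11.69 in null arrays and from 9.66 through 10.03 to 10.40 in wildtype arrays (change 0.30, SE 0.30, limma adjusted p = 0.63). The groups overlapped, with null 4 below and null 3 and null 5 above every wildtype array. H2-Ab1, its beta chain, ran from 11.91 through 12.65 to 13.53 in null and from 12.23 through 12.41 to 12.53 in wildtype arrays by its probe of highest mean (0.28, SE 0.20, adjusted p = 0.466). The other probes of H2-Ab1 gave changes of 0.28 (adjusted p = 0.524) and 0.40 (0.347), and by each of the 3 probes null 5 was the highest and null 4 the lowest of all arrays. H2-Eb1, the I-E beta chain, ran from 10.84 through 11.77 to 12.86 in null and from 11.27 through 11.40 to 11.61 in wildtype arrays (0.37, SE 0.24, adjusted p = 0.441). For H2-Eb1 4 null arrays lay above and 1 below the whole wildtype range. I-E itself needs H2-Ea, whose probe was detected on no array. The C57BL/6 strain is known to lack H2-Ea expression.

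Cd74, the invariant chain, had the smallest fitted changes among the presenting chains. Its 3 probes gave changes of 0.15 (SE 0.20, limma adjusted p = 0.729), 0.13 (SE 0.19, 0.748) and 0.21 (SE 0.24, 0.685). By the probe of highest mean it ran from 12.41 through 13.33 to 14.06 in null and from 13.02 through 13.15 to 13.25 in wildtype arrays. The ratio of the highest to the lowest array was 3.145 among null and 1.17 among wildtype arrays for that probe. All 3 probes placed null 5 highest and null 4 lowest. Cd74 lies on chromosome 18, apart from the H2 members.

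H2-DM, the peptide exchanger, held the largest fitted change. H2-DMb1, a beta chain, ran from 8.19 through 8.97 to 10.99 in null and from 8.18 through 8.38 to 8.71 in wildtype arrays (0.79, SE 0.36, 95% interval 0.02 to 1.57, unadjusted p = 0.0461, limma adjusted p = 0.267). Null 3, 5 and 6 were above every wildtype array, and null 1, 2 and 4 were within the wildtype range. Without null 5 the change of H2-DMb1 was 0.44. H2-DMa, the alpha chain, gave 0.53 (SE 0.29, adjusted p = 0.346) and 0.45 (SE 0.25, 0.357) by its probes, and by the second 5 of 6 null arrays were above every wildtype array.

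The probes of H2-DMb2, the other beta chain, did not move together. Probe 7040731 ran from 9.18 through 10.29 to 11.67 in null and from 9.67 through 9.78 to 9.90 in wildtype arrays (0.53, SE 0.29, limma adjusted p = 0.349), with null 5 highest at 1.89 above the wildtype mean. Probe 3450482 ran from 7.90 through 9.25 to 9.58 in null and from 8.79 through 9.13 to 9.25 in wildtype arrays (-0.03, SE 0.23, adjusted p = 0.956), with null 5 only 0.05 above the wildtype mean. Both probes placed null 4 lowest, but the highest array by probe 3450482 was null 1. Which transcripts the 2 probes read was not given in the sources used here.

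The chains of H2-O, the inhibitor of H2-DM, differed from each other. H2-Oa, the alpha chain, ran from 7.49 through 7.93 to 9.36 in null and from 7.60 through 7.79 to 8.10 in wildtype arrays (0.27, SE 0.25, limma adjusted p = 0.605), and its second probe gave 0.26 (0.631). H2-Ob, the beta chain, ran from 9.03 through 9.70 to 9.87 in null and from 9.75 through 9.93 to 10.01 in wildtype arrays (-0.33, SE 0.14, 95% interval -0.63 to -0.03, unadjusted p = 0.034, adjusted p = 0.237). Its exact two-sided permutation p was 0.0368, unadjusted, where the smallest p these group sizes allow is 0.0022. Null 5, the highest array for H2-Oa, was the lowest of all 12 for H2-Ob, at -0.86 from the wildtype mean, followed by null 4 at -0.65 and null 3 at -0.25. No null array exceeded the wildtype range of H2-Ob, and 3 of 6 lay below it. H2-Ob was the member with the smallest ratio of highest to lowest null array, 1.797, against 1.195 in wildtype arrays.

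Ciita, the coactivator, gave fitted changes on either side of 0 by its probes. Probe 2630463 ran from 6.69 through 7.96 to 8.45 in null and from 7.69 through 7.80 to 7.98 in wildtype arrays (0.06, SE 0.23, limma adjusted p = 0.923). The C2TA probe ran from 4.70 through 5.79 to 6.28 in null and from 5.64 through 5.98 to 6.13 in wildtype arrays (-0.21, SE 0.21, adjusted p = 0.636). Null 4 was the lowest array by both, at -1.12 and -1.24 from the wildtype mean, and null 5 the highest by both, at 0.64 and 0.35.

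**Figure D2:**
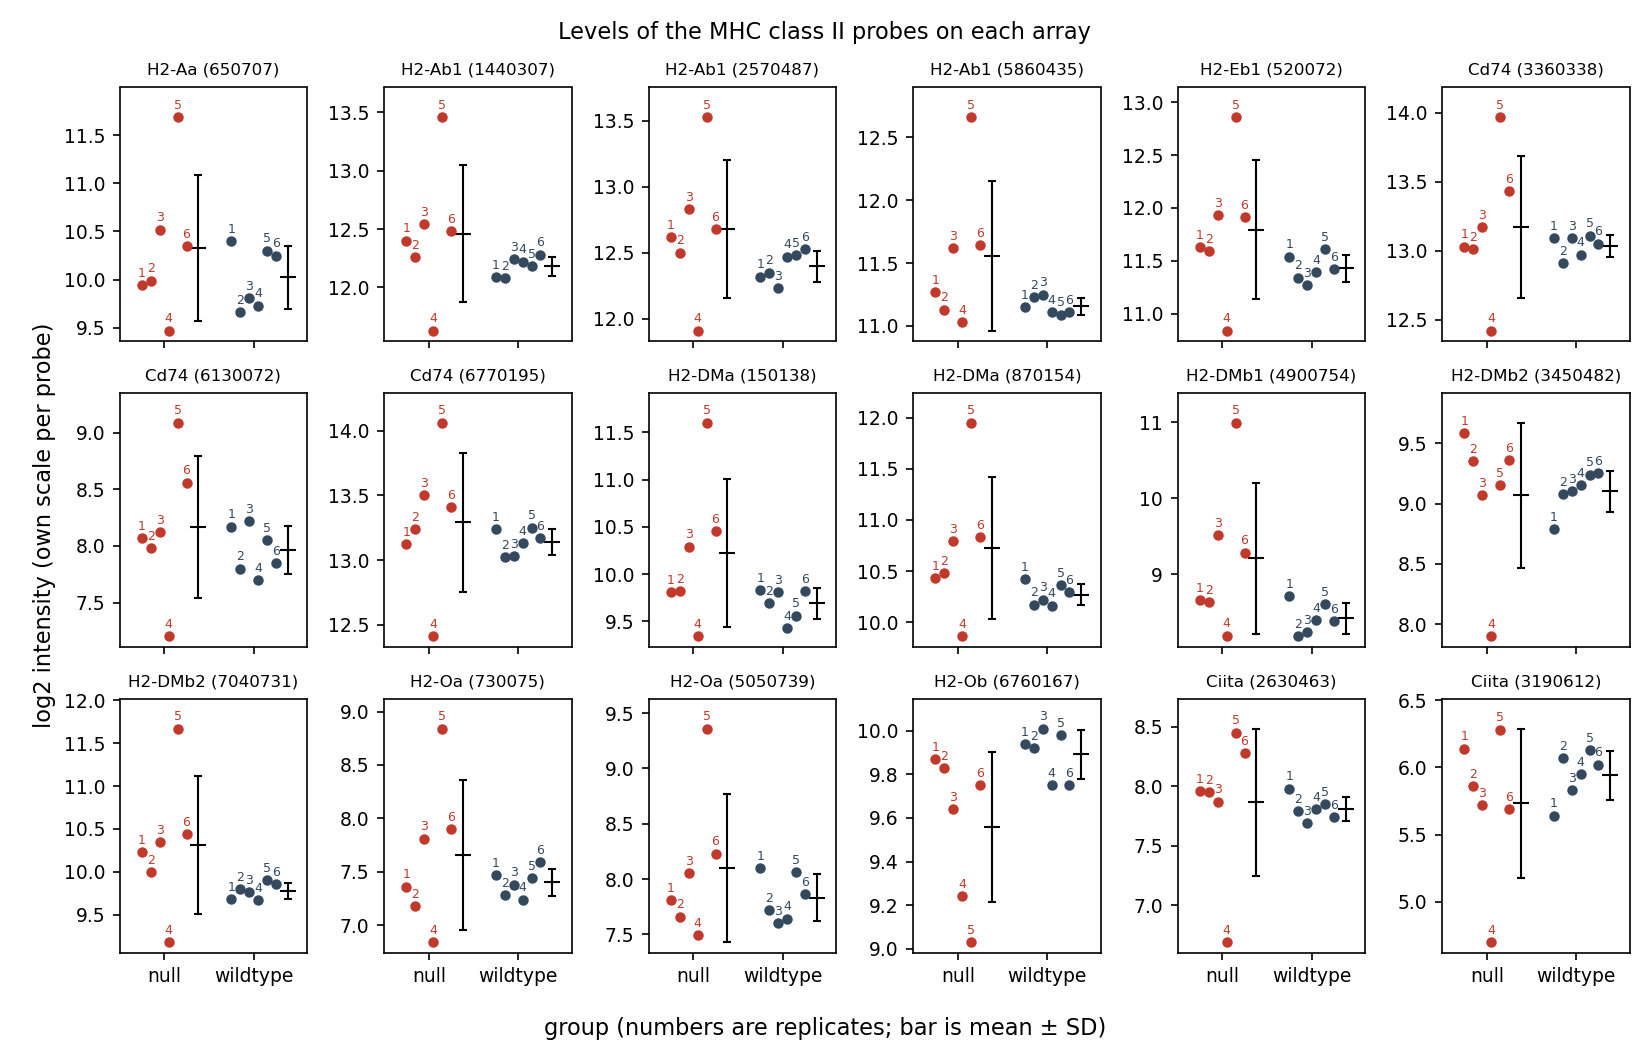
Log2 intensity of each MHC class II probe (own vertical scale per panel) in the 6 null arrays (left, red) and the 6 wildtype arrays (right, blue), numbered by replicate, with mean ± SD bars. Null arrays range more widely in every panel, and in 16 of 18 panels null 5 is the highest of the 12 arrays.

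Spread between samples, a measure chosen after the data had been seen, widened in null arrays more for the class II genes than for most tested probes. The trait was not particular to class II genes. For the class I gene H2-D1 the SD was 0.505 over null and 0.102 over wildtype arrays. For Irf1, a regulator of Ciita, it was 0.664 and 0.068, but for Tap2 it was 0.148 and 0.166. The SD over null arrays was at least 2 times the SD over wildtype arrays for 18 of 18 member probes, against 31.3% of all tested probes. The ratio had a median of 5.02 over the members, with a range of 2.32 for H2-Aa to 8.86 for H2-DMb2 (probe 7040731), and a median of 1.47 over all tested probes. The median SD of the members was 0.62 in null and 0.12 in wildtype arrays, beside 0.23 in null and 0.16 in wildtype arrays over all tested probes. Without null 5 the count was 16 of 18 with a median ratio of 3.46 (20.9% of all tested), and without null 4 it was 16 of 18 with 3.88 (28.9%).

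**Figure D3:**
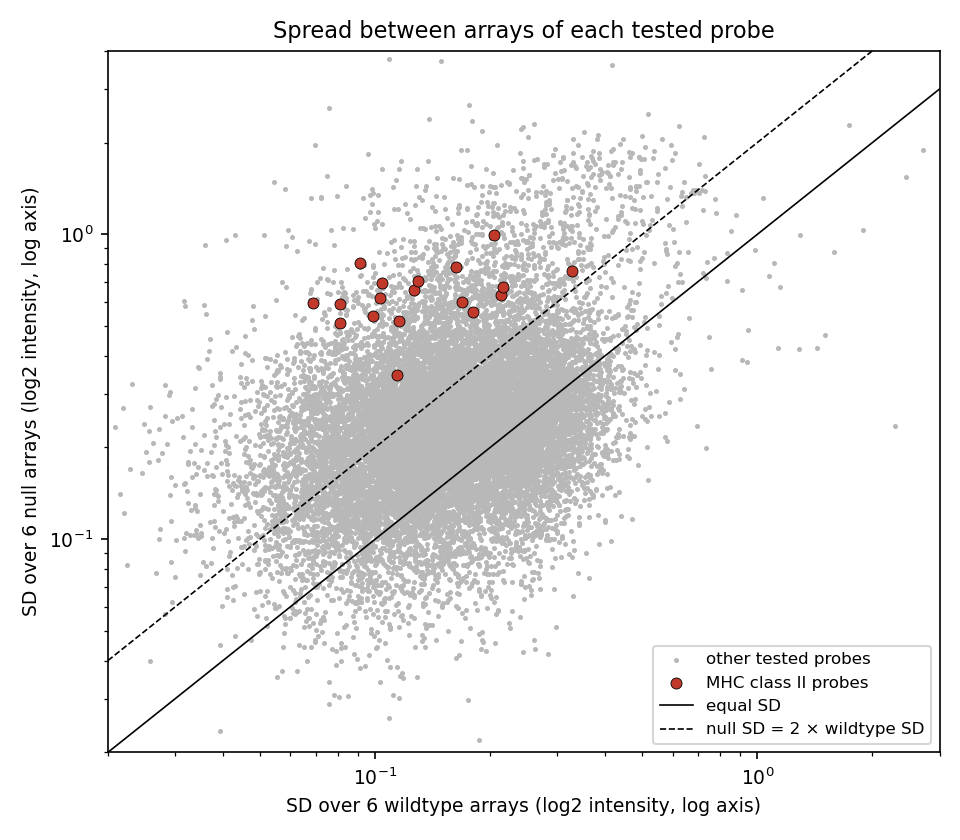
SD over the 6 null arrays (vertical) against SD over the 6 wildtype arrays (horizontal) for each tested probe, both in log2 intensity on log axes, with lines at equal SD and at a ratio of 2. All 18 MHC class II probes (red) lie above the upper line, against 31.3% of all tested probes.

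The order of the null samples was shared by most members. Null 5 was the highest of the 12 arrays for 16 of 18 probes (17.5% of all tested) and the lowest for 1, H2-Ob (28.7%). Null 4 was the lowest for 16 of 18 (15.2%), and both held for 15 of 18 (3.29%). The median deviation of the 18 probes from their wildtype means was 1.36 in null 5, 0.43 in null 6, 0.39 in null 3, 0.14 in null 1, 0.09 in null 2 and -0.57 in null 4, and within -0.09 to 0.09 in the wildtype arrays. In null 6 15 probes exceeded every wildtype array (19.1% of all tested), in null 3 12 (18.1%), and in null 5 16 (24.0%). In null 4 0 probes exceeded every wildtype array and 17 lay below all of them (28.9%). In null 1 8 probes exceeded every wildtype array (17.1% of all tested), and in null 2 3 did (16.1%). Null 4, 5 and 6 were all on BeadChip 1.

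The size of the class II difference moved with single samples. The median change of the 18 probes, 0.27 with all arrays, was 0.03 without null 5 and 0.43 without null 4, and 0 probes were called by limma in either fit. Without null 4 the unadjusted limma p was under 0.05 for 10 of 18 probes, against 3312 of 17607 tested, and without null 5 for 0 of 18, against 2903 of 17607 tested. On BeadChip 1 alone the median was 0.45 and on BeadChip 2 alone 0.14, with 0 calls on either. Of the members, 0 of 18 probes had all null arrays on one side of all wildtype arrays, against 3.01% of all tested.

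The 8 H2 members lie in 1 stretch of chromosome 17, where other genes stand between them. In the annotation (GRCm38.p6, used for gene order only) the order is H2-Oa, Brd2, H2-DMa, H2-DMb2, H2-DMb1, Psmb9, Tap1, Psmb8, Tap2, H2-Ob, an unnamed gene, H2-Ab1, H2-Aa, H2-Eb1, H2-Eb2 and H2-Ea. Of these 16 genes 14 were tested, 6 of them not members, and 0 of the 14 passed, each read by its tested probe of highest mean. In null 5 H2-DMb1 stood 2.57 above its wildtype mean and its neighbour Psmb9, a proteasome subunit, 0.35. Likewise H2-Oa stood at 1.53, and its neighbour Brd2, a bromodomain protein, at -0.21. Tap2, a peptide transporter subunit next to H2-Ob, stood at 0.21, and Tap1, the other subunit, at 1.12. The genes between the members did not share 1 level in null 5. Smchd1 is on the same chromosome, with 837 annotated genes between it and H2-Ea.

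**Figure D4:**
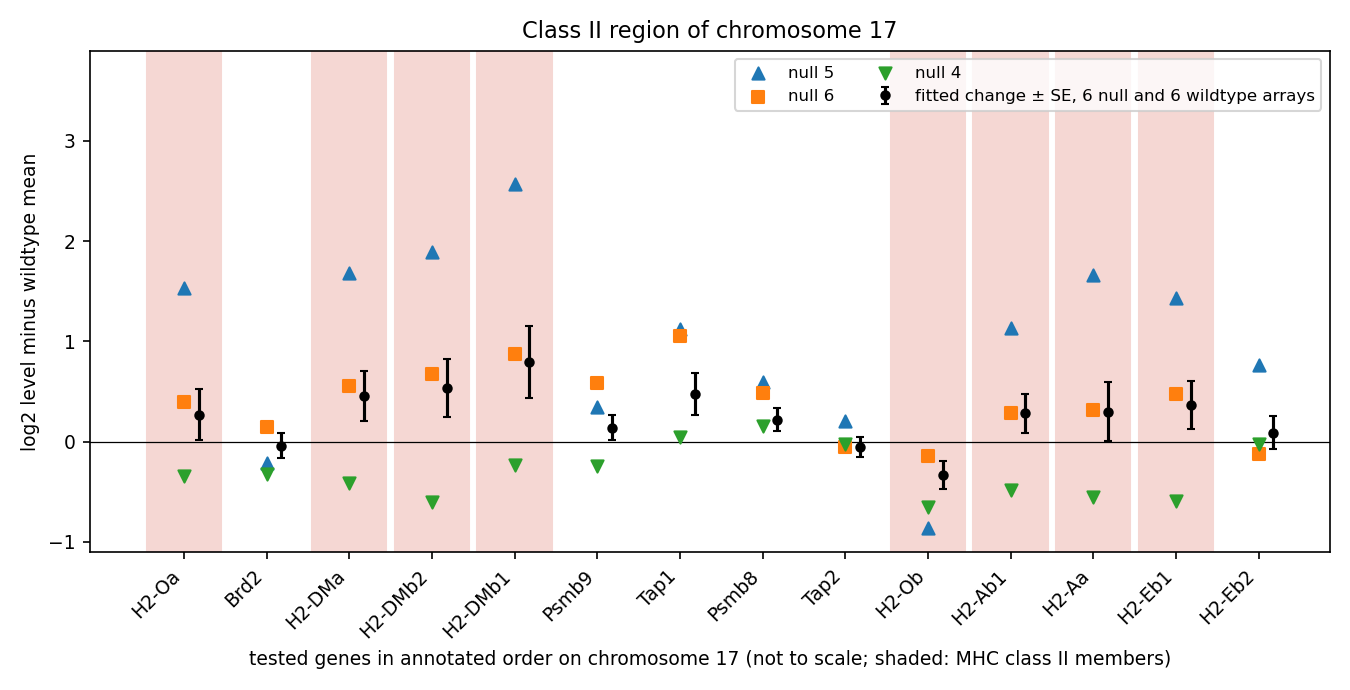
Log2 level minus the wildtype mean of the tested genes of the class II region in annotated order (horizontal, not to scale), in null 5, null 6 and null 4 and as the fitted change ± SE over 6 null and 6 wildtype arrays. Each gene is shown by its tested probe of highest mean. In null 5 the shaded members lie between 1.13 and 2.57, except H2-Ob at -0.86, and Brd2 lies at -0.21. Probe 3450482 of H2-DMb2, not shown, lies at 0.05 in null 5.

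The other genes of the pathway were read from lists, with 1 probe per gene, and 0 genes of any of the 8 lists passed the test in either direction (limma, against 1.22% of all tested). The lysosomal list, whose enzymes trim Cd74 and antigens, held the largest list median, 0.52 over 8 tested genes. Of these, 4 had an unadjusted limma p under 0.05, against 18.1% of all tested probes. Ctsz, a cathepsin, averaged 9.70 ± 0.29 in null and 9.14 ± 0.19 in wildtype arrays (SD, n = 6 each; 0.57, SE 0.13, limma adjusted p = 0.0582). Ctsh, an aminopeptidase cathepsin, gave 1.19 (SE 0.36, adjusted p = 0.116) and reached 12.74 in null 5, against at most 10.32 in wildtype arrays. Ifi30, the thiol reductase that opens disulphide bonds of antigens, gave 0.76 (SE 0.24, 0.128). The lysosomal mean was above the wildtype mean in all 6 null arrays, from 0.13 to 1.30, against -0.10 to 0.24 in wildtype arrays, so that null 1 and null 2 lay within the wildtype range. In null 4 it was 0.28, where the class II mean was -0.57.

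The factors that read the promoter module did not differ in 1 direction. Of 7 promoter factors 6 were tested, with a median change of -0.05, and 2 had an unadjusted p under 0.05 (18.1% of all tested). Rfx5, of the RFX complex, was not tested, and Rfxank, of the same complex, was detected on only 3 arrays. Nfyb and Nfyc, subunits of NF-Y, gave -0.30 (SE 0.12, limma adjusted p = 0.22) and -0.18 (SE 0.08, 0.275), and Nfya, the third subunit, gave 0.14 (0.408). Of 12 tested regulators of Ciita 4 had an unadjusted p under 0.05 (18.1% of all tested), with a median of 0.10. Irf2 gave -0.24 (SE 0.08, 0.164), Irf4, a B-lineage factor, -0.51 (SE 0.18, 0.164) and Ifngr1, a chain of the interferon gamma receptor, 0.44 (SE 0.16, 0.188).

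Costimulatory molecules, which accompany class II in T cell activation, had a median of 0.37 over 5 tested genes. Of these, 3 had an unadjusted p under 0.05 (18.1% of all tested). Cd86 averaged 6.92 ± 0.37 in null and 6.28 ± 0.17 in wildtype arrays (0.64, SE 0.15, limma adjusted p = 0.0621). Cd80 gave 0.37 (SE 0.12, 0.141) and Cd274, the ligand of the PD-1 receptor, 0.49 (SE 0.23, 0.271). The Cd80 probe, whose change is the list median, was detected on only 5 arrays. Of 6 tested targets of interferon gamma, which induces Ciita, 1 had an unadjusted p under 0.05 (18.1% of all tested). The median of the 6 was 0.36, and Irgm1, a GTPase, gave 0.40 (SE 0.10, 0.0732). Igtp, a GTPase of the same family, gave 0.78 (0.299) and Irgm2 0.81 (0.309). The 3 tested trafficking genes had a median of -0.08, with Ap1g1 at -0.08 (0.63), Ap2m1 at -0.08 (0.635) and Rab7 at 0.04 (0.846). H2-Eb2, the tested chain outside the members, gave 0.09 (0.804).

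MHC class I genes, which show peptides of the cytosol, were set beside the class II genes because both pathways serve antigen presentation. The 9 class I genes had a median of 0.22, with 1 at an unadjusted p under 0.05 (18.1% of all tested). Tap1 gave 0.48 (SE 0.21, limma adjusted p = 0.247), Tapbp, which bridges Tap and class I, 0.48 (0.306) and Psmb8, a proteasome subunit, 0.22 (0.326). The class I mean was 0.77 in null 5, 0.64 in null 6 and -0.17 in null 4, beside a class II mean of 1.26, 0.42 and -0.57 in the same arrays. Whether the class I and class II patterns differ was not tested.

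Markers of the labelled cell type and of other cells that could be in the sort moved across the same null samples. Of 18 pre-B markers, 17 on the array, 12 were detected on all arrays and Vpreb2 and Erg on none. Over the 14 tested pre-B genes the mean lay from -1.38 (null 5) to 0.79 (null 4) in null arrays and from -0.23 to 0.12 in wildtype arrays, so the array with the highest class II levels had the lowest pre-B mean and the reverse held for null 4. In these bulk samples fewer cells of a type and less RNA per cell cannot be told apart. The mature B mean of 11 tested genes lay from -0.29 to 0.17 in null and from -0.08 to 0.08 in wildtype arrays, with -0.29 in null 5.

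Of 12 markers of conventional dendritic cells, which are rich in class II, 10 were detected on no array, among them the defining Itgax, Zbtb46, Flt3 and Clec9a. The mean of the 2 tested lay from -0.32 to 0.13 in null and from -0.11 to 0.19 in wildtype arrays. These were Xcr1, detected on only 3 arrays, and Dpp4, detected on all 12, so this mean is a poor measure of these cells. The 9 tested plasmacytoid dendritic markers, of 12 on the array, averaged 2.33 in null 5, 1.40 in null 6 and 0.87 in null 3. Their range was -0.10 to 2.33 in null and -0.44 to 0.56 in wildtype arrays. Of the 12 on the array, 9 were detected on all arrays, and Ccr9 and Smim5 on none. Macrophage and monocyte markers (5 of 13 tested) lay from 0.11 to 1.65 in null and from -0.35 to 0.35 in wildtype arrays. Their mean was 1.65 in null 3 and 1.34 in null 5. Of the 13, 3 were detected on all arrays and 4, among them Fcgr1, Ccr2 and Cybb, on none.

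T and NK markers (9 of 13 tested) lay from 0.15 to 2.20 in null, highest in null 5, and from -0.19 to 0.31 in wildtype arrays. Of the 13, 5 were detected on all arrays, and Cd247, Cd8a and Ncr1 on none. Neutrophil markers (10 of 12 tested) lay from -0.59 to 3.82 in null and from -0.44 to 0.46 in wildtype arrays, with the highest mean in null 3. Of the 12, 9 were detected on all arrays, and Mmp8 on none. Plasma cell markers (5 of 8 tested) lay from 0.09 to 0.77 in null, highest in null 5, and from -0.09 to 0.06 in wildtype arrays. Of the 8, 4 were detected on all arrays, and Prdm1, Jchain and Tnfrsf17 on none. Type I interferon genes (14 of 18 tested) reached 3.123 in null 5 and 2.69 in null 6. Their range was -0.09 to 3.123 in null and -0.25 to 0.55 in wildtype arrays. Of the 18, 5 were detected on all arrays, and Ifit1, Oas1a and Ifi44 on none. Null 4 had a plasmacytoid dendritic mean of 0.30, a T and NK mean of 0.53 and a macrophage mean of 0.58. With 2 covariates, the mean of the macrophage and neutrophil markers together and that of the plasmacytoid dendritic markers, the median class II change was -0.14, with 0 of 18 probes called. The part of these or of the other lists in the class II levels was not tested.

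**Figure D5:**
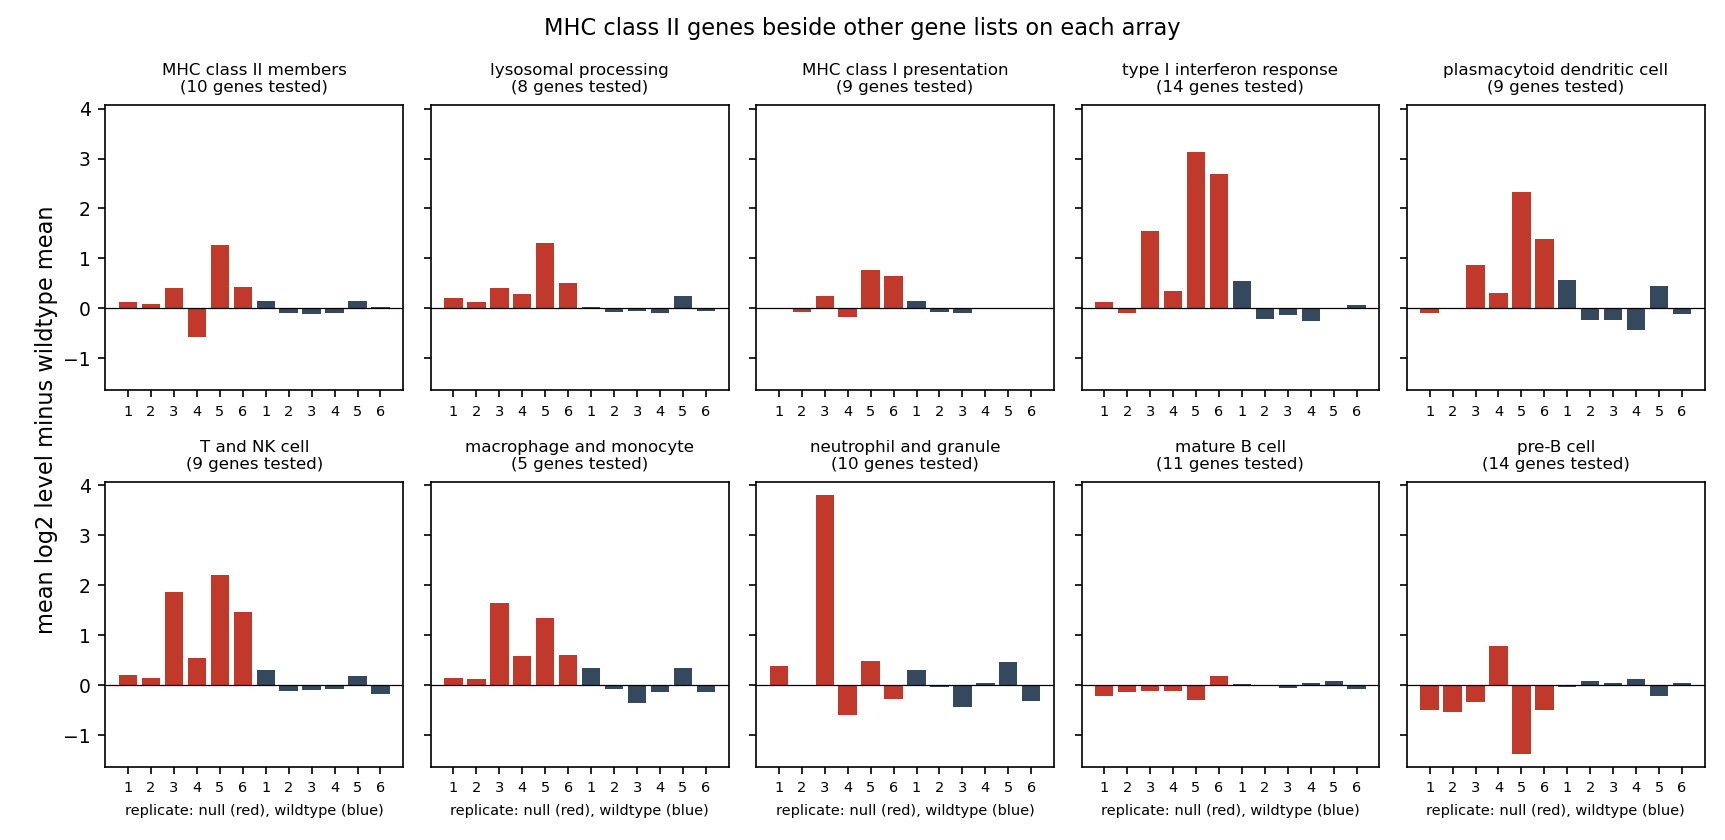
Mean log2 level of each gene list on each array, minus the wildtype mean (vertical), for the 6 null arrays (red, left) and the 6 wildtype arrays (blue, right). The class II mean is 1.26 in null 5 and -0.57 in null 4, where the pre-B mean is -1.38 and 0.79.

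The genes most like the class II genes over the 12 arrays were chosen by the Pearson correlation of their level with the class II mean, as a description in which null 5 and null 4 weigh heavily. Among the highest were Capn2 (0.981), Rassf4 (0.974), Gdf9 (0.967), Plekha1 (0.964), Iqgap2 (0.961), Btbd14a (0.957) and Capn1 (0.957). Without null 5 and null 4 the correlation of these 7 genes ran from 0.681 for Capn1 to 0.929 for Iqgap2. Iqgap2, a scaffold of the cytoskeleton, reached 10.35 in null 5 and 7.43 in null 4, against 7.74 to 8.34 in wildtype arrays. Capn2, a calcium-dependent protease, reached 8.41 in null 5 and 5.17 in null 4, against 5.62 to 6.31 in wildtype arrays. None of these 7 genes passed the test, with limma adjusted p from 0.382 (Btbd14a) to 0.717 (Capn1).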

How the data were processed

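RNA of 6 null and 6 wildtype samples was measured on 12 arrays, grouped by the labels. The deposited tables hold mean bead intensity per probe, not normalized, with bead counts and control probes, per the file headers (GenomeStudio 1.8.0). Their detection values are a fraction, 1 minus the p-value that another deposited table of unnormalized intensity gives per probe. A table of log2 values processed by the authors was also deposited, and per the submitters' processing notes the tools were BeadStudio, limma 3.12.1 and R 2.15.1. A genome build was not given in the sources used here.

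Intensities were corrected with the 936 negative controls, quantile normalized (offset 16) and log2 transformed (neqc, limma 3.58.1, R 4.3.3), and differed from the authors' log2 values by at most 5.0e-09. Probes with detection p under 0.05 on at least 3 of 12 arrays were tested, which kept 17607 and left out 27674. The fit was lmFit and eBayes on genotype alone, with Benjamini-Hochberg adjustment over all of them. The fit was tested on simulated data in which each probe had the same SD in both genotypes, which the class II probes did not. Of 67 probes given a log2 change of 0.5, 38.8% were called at adjusted p under 0.05, and of 67 given a change of 1, 85.1%. These shares therefore do not give the power for the class II probes. The number of arrays limits the precision.

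The members and the gene lists were chosen with earlier results of these data known. Named were all members, in each list the genes at adjusted p under 0.05 and up to 3 of smallest p, the 8 genes most correlated with the class II mean (1 of them is not reported here), and Smchd1, and unnamed symbols (LOC, Rik, and Gm or BC numbers) were skipped. 2310002L09Rik and the genes of the class II region fall outside this rule and were named after their values were seen, as were H2-Eb2 and undetected markers. H2-D1, Irf1, Rfx5, Rfxank, Xcr1 and Dpp4 were also named in this way. A list uses the probe of highest mean per gene. Irgm2 and Iigp2 of the interferon gamma list are read by the same probe and counted once. Alternatives were other normalization, background and filters, a block for BeadChip or replicate number, single BeadChips, another prior, array weights, arrays left out and marker means as covariates.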

Additional observations from a re-analysis of the deposited data

Results flagged for a closer look

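Each member probe was examined for 1 sample far from the other 5 of its genotype, in 36 groups of 6 arrays, of which chance picks about 1 in 20. There were 3 such values. Ciita by probe 2630463 was 6.69 in null 4, with the nearest null array at 7.87, a gap of 0.671 of the range. H2-DMb2 by probe 3450482 was 7.90 in null 4, with the nearest null array at 9.07, a gap of 0.698. H2-DMb2 by the same probe was 8.79 in wildtype 1, with the nearest wildtype array at 9.08, a gap of 0.637.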

How the results depend on the processing

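The count of called class II probes was 0 in each limma fit run, 26 alternatives in all, and 1 by the exact permutation test with no adjustment. The median class II change was 0.19 with arrays scaled to 1 median and not quantile normalized, 0.19 with array weights, 0.09 with null 3, 4, 5 and 6 left out, -0.02 with null 3 and 5 left out and -0.14 with the 2 marker means as covariates. Leaving out each array in turn gave medians from 0.03 to 0.43, with 0 calls, and 16 to 18 probes whose null SD was at least 2 times the wildtype SD. The number of probes called among all tested, 215 (94 higher, 121 lower), was 92 with median scaling (59 higher, 33 lower), 101 with no filter on dim probes, 12 on BeadChip 1 and 43 on BeadChip 2, 380 with array weights and 77 with the covariates. Leaving out 1 array gave 68 (without wildtype 3 or wildtype 6) to 319 (without null 2). The labels do not say whether samples of the same replicate number were paired. Same-numbered arrays had correlations of -0.294 to 0.085, none over 0.1, which cannot exclude a pairing. With the replicate number as a block 104 probes were called, 64 higher and 40 lower, 0 of them class II, and the median class II change was 0.27. The causes of these shifts were not tested. Signal stood above background on all 12 arrays for 17 class II probes and on 11 for the C2TA probe.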
